A study of Homo sapiens with 4 samples.

Results

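The 10 genes of the core TGF-beta pathway were measured in cells labelled UMSCC74B, a cultured line from a squamous cell carcinoma of the head and neck. They were chosen by name as the ligands TGFB1, TGFB2 and TGFB3, the receptors TGFBR1, TGFBR2 and TGFBR3, and the SMADs SMAD2, SMAD3, SMAD4 and SMAD7. All 10 were found among the 29655 gene names of the tables and all 10 were among the 11882 protein-coding genes tested. The RNA-seq libraries comprised 2 Control libraries, labelled WT and given control shRNA, and 2 libraries labelled PRMT5 KD, given shRNA against PRMT5, an arginine methyltransferase. Both groups were cultured in serum-containing DMEM and collected after 72 h, and the Control cells also received an shRNA construct. How the shRNA was delivered is given as plasmid transfection in the labels and as lentiviral transduction in the study's methods. The labels name no TGF-beta treatment of these cells. The comparison asked which transcripts differed after the PRMT5 shRNA.

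TGF-beta ligands are secreted as latent dimers that are held in the extracellular matrix until integrins, thrombospondin or proteases release them. The active ligand binds the type II receptor TGFBR2, which phosphorylates the type I receptor TGFBR1, and the co-receptor TGFBR3 (betaglycan) presents ligand, TGFB2 above all, to TGFBR2. TGFBR1 then phosphorylates SMAD2 and SMAD3, which enter the nucleus with SMAD4, while SMAD7 is induced by the pathway and blocks TGFBR1. In squamous epithelium the pathway is known for growth arrest and, in tumours, for a shift to mesenchymal gene expression.

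Library totals ran from 52185289 to 65964558 counts, and protein-coding genes made up 71.5% to 81.3% of each. Ribosomal RNA took 14.2% to 18.02% of the counts in 3 libraries and 26.2% in PRMT5 KD replicate 1. The targeted transcript went against the label. PRMT5 was at 94.3 and 84.3 CPM (counts scaled to library size, with TMM factors) in Control, whereas the libraries labelled PRMT5 KD had 132 and 150 CPM. That is a log2 fold change of 0.66 (SE 0.12, n = 2 per group, FDR 0.00543, edgeR quasi-likelihood test), which fell to 0.58 with an FDR of 0.0660 without Control replicate 2. The study describes an immunoblot check of the PRMT5 shRNA, which is not part of the counts analysed here, and groups are named by their labels throughout. The marker genes went against the labelled cell type, and the identity of the cells was not tested, so every value below is that of the libraries as labelled. The keratins KRT5, KRT14 and KRT6A had 0 to 22 counts per library and EPCAM 29 to 48. Only TP63 and DSG3 of the 7 squamous markers were tested, and both were called lower. The list summed to 43.8 to 49.6 CPM in Control and 22.2 to 31.8 CPM under the PRMT5 KD label. Most of that was DSG3. Not all untested markers were lower. SFN had 3 and 5 counts in Control against 28 and 86 under the PRMT5 KD label, KRT14 0 and 0 against 11 and 22, and EPCAM 37 and 29 against 40 and 48. Of 5 fibroblast markers, 4 were tested and all 4 were called lower. Their list summed to 586 and 660 CPM in Control against 93.5 and 113 CPM under the PRMT5 KD label. The leukocyte list, with CD3E at 0 and PTPRC at 0 to 5 counts, summed to 34.8 and 40.2 CPM against 1.18 and 2.03 CPM, nearly all of it CD14, and the endothelial list to 10.1 and 14.04 CPM against 1.01 and 0.46 CPM. The part of these marker differences in the results below was not tested. In bulk RNA, fewer cells of a type and less RNA per cell cannot be told apart. The labels do not say that replicates came from separate cultures, so p-values measure only the spread between these libraries, which may be technical.

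Transcripts of the pathway's core were mostly lower in the libraries labelled PRMT5 KD. Of the 10 genes, 5 were called lower (TGFB2, TGFBR1, TGFBR2, TGFBR3 and SMAD2) and 0 were called higher. Calls needed an FDR below 0.05 together with a log2 fold change of 0.5 or more in size. By the same rule 24.4% of all genes tested were called lower, 21.2% higher and 45.6% in either direction. The median log2 fold change of the 10 was -0.66 against -0.01 over all genes tested, and SMAD7 alone was above 0. Without a fold threshold, 7 of the 10 passed an FDR of 0.05, against 54.5% of all genes, and 4 of the 10 did so when the fit adjusted for GC content and length of exons. That number was 5 with total counts in place of TMM, without a filter, with filterByExpr, with all gene names and with the replicate block. It was 8 with DESeq2. The share of all genes passing that FDR was taken in the main fit only. The values of the 4 libraries did not overlap between groups for any of the 10, which was also the case for 80.5% of all genes. By DESeq2 too, 5 were called lower and 0 higher. Without Control replicate 2 the number called lower was 2, TGFB2 and SMAD2, and in the same fit the number of all genes called fell from 5417 to 3118.

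**Figure D1:**
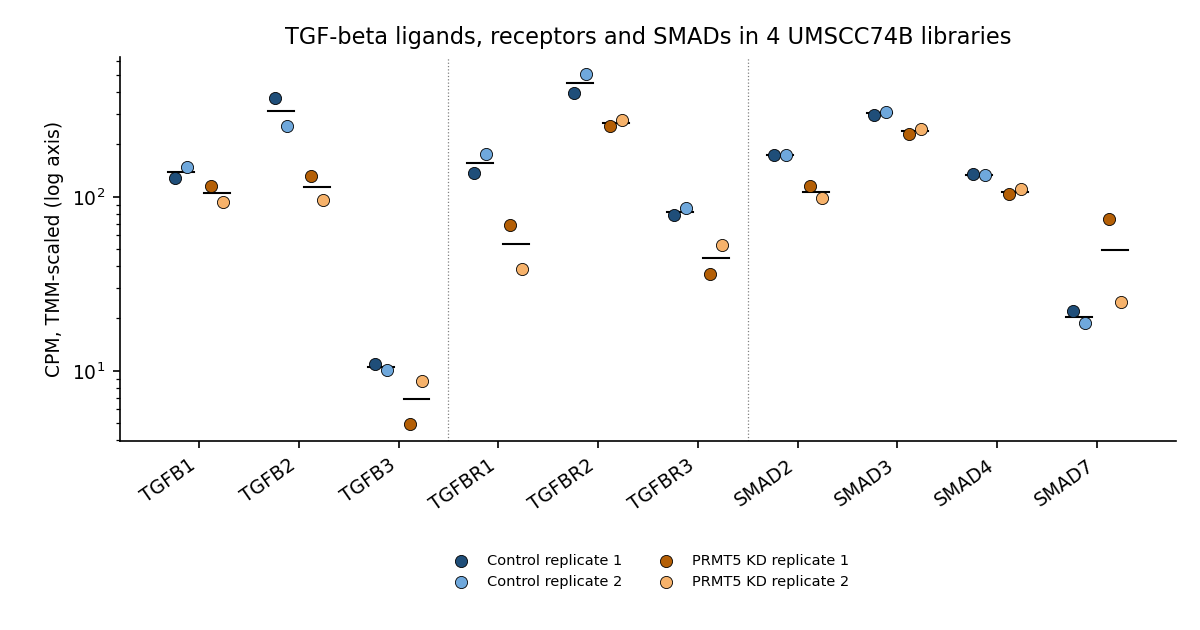
Level of each gene in the 4 libraries, in TMM-scaled CPM on a log axis, with ligands, receptors and SMADs parted by dotted lines and each group's mean drawn as a black bar. The libraries labelled PRMT5 KD (orange) lie below the Control libraries (blue) for 9 genes and above them for SMAD7, whose PRMT5 KD libraries stand far apart at 74.1 and 25.01 CPM.

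**Figure D2:**
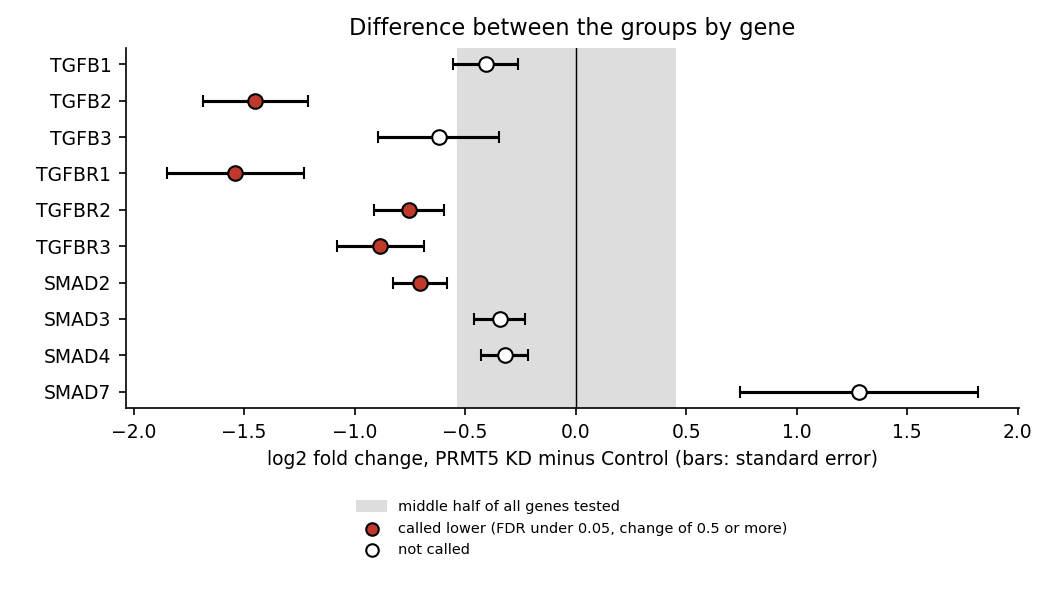
Log2 fold change of each gene, libraries labelled PRMT5 KD minus Control, with its standard error as a bar. Filled points are the 5 genes called lower, open points were not called, and the grey band, from -0.53 to 0.45, spans the middle 50% of all 11882 genes tested.

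Among the ligands, TGFB2 had the largest difference and was the only ligand called. TGFB2 stood at 368 and 256 CPM in Control and at 132 and 96.3 CPM under the PRMT5 KD label, so that each PRMT5 KD library was below the lower Control library. Its log2 fold change was -1.45 (SE 0.24, FDR 0.00446), between -1.68 and -1.16 with 1 library left out. TGFB1, the isoform most widely expressed among tissues, had 129 and 149 CPM in Control against 116 and 93.4 CPM under the PRMT5 KD label. Both PRMT5 KD libraries were below both Control libraries, but the difference missed both thresholds and TGFB1 was not called (log2 fold change -0.41, SE 0.15, FDR 0.0544). Without PRMT5 KD replicate 1 it would be called (-0.54, FDR 0.00936). TGFB3 was the scarcest ligand, at 10.9 and 10.2 CPM in Control against 4.98 and 8.73 CPM under the PRMT5 KD label. The PRMT5 KD libraries differed 1.75-fold from each other, more than in 95.8% of all genes tested, and TGFB3 was not called (log2 fold change -0.62, SE 0.27, FDR 0.101). It would be called without PRMT5 KD replicate 2 (-1.08, FDR 0.00116) and had -0.24 without PRMT5 KD replicate 1.

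The make-up of the ligand transcripts was also compared. Per exon length, TGFB2 held 59.4% and 47.1% of the summed ligand RPKM (reads scaled to exon length and library size) in Control against 37.4% and 34.4% under the PRMT5 KD label. TGFB1 held 38.6% and 50.7% in Control against 60.9% and 61.9% under the PRMT5 KD label. TGFB1 was thus the larger share in 3 of 4 libraries, Control replicate 1 being the exception, and TGFB3 held 1.64% to 3.62% in all 4. These shares were not tested, and transcript shares say nothing of the secreted or active protein.

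**Figure D3:**
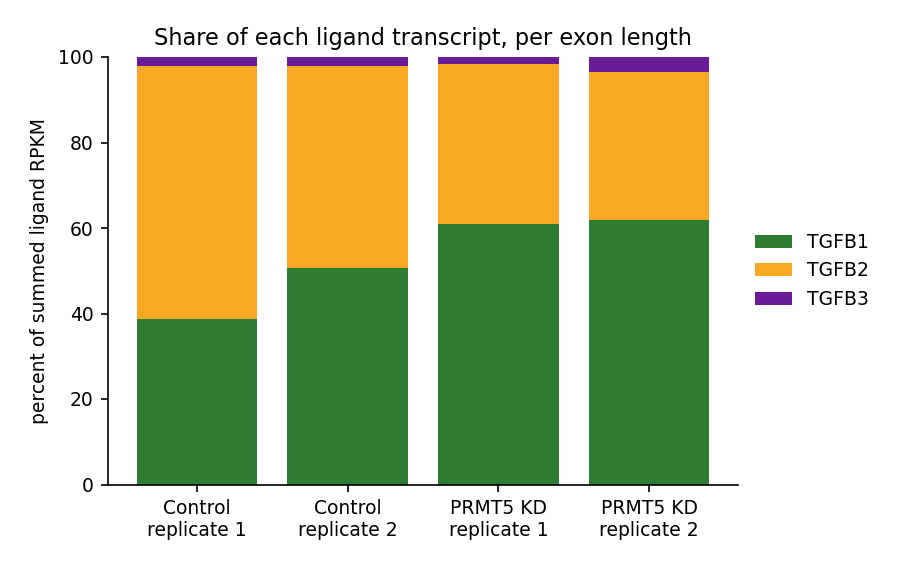
Percent of the summed RPKM of the 3 ligand genes held by each, 1 stacked bar per library. TGFB1 (green) goes from 38.6% and 50.7% in the Control libraries to 60.9% and 61.9% in the libraries labelled PRMT5 KD, and TGFB2 (yellow) takes the reverse course.

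The 3 ligand genes sit on different chromosomes and their starts differ in motif content, TGFB1 from the other two, which is why the bases next to them are shown. On GRCh38 in the GENCODE annotation, TGFB1 spans chr19:41301587-41353922 on the minus strand, TGFB2 chr1:218345336-218444619 on the plus strand and TGFB3 chr14:75958097-75983011 on the minus strand. The 80 bases before each gene's canonical start, from RefSeq's promoter table (GRCh38.p14), are written 5′ to 3′ on the gene's own strand. They cover chr19:41353923-41354002, chr1:218345256-218345335 and chr14:75981996-75982075. Capitals mark TATAAA (the TATA box), GGGCGG (the GC box bound by SP1) and TGACG (the core of the site bound by CREB and ATF factors) on either strand, none of them overlapping.
TGFB1: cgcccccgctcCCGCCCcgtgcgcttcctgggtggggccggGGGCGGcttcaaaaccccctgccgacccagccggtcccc
TGFB2: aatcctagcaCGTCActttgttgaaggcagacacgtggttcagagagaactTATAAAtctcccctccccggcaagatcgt
TGFB3: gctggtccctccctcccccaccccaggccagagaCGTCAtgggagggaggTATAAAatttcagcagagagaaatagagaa
TGFB2 and TGFB3 each hold 1 TATA box, 29 and 30 bases before the start, and 1 TGACG core, whereas TGFB1 holds neither and has 2 GC boxes. Among the 35116 promoters of the table, the same 80 bases held TATAAA in 4.35%, TGACG in 9.92% and GGGCGG in 27.8%. None of the 3 receptor genes and 4 SMAD genes had TATAAA or TGACG in this window, and TGFBR2, TGFBR3, SMAD2 and SMAD3 had 1 GC box each. Only the canonical start of each gene was searched. RefSeq lists 8 promoters for TGFBR1, 5 for SMAD3, 3 for SMAD7 and 2 each for TGFB3, TGFBR2 and SMAD2. These are matches of letters, and no measurement of factor binding was used here. TGFB2 shares 11.6% of its exon bases with the antisense gene TGFB2-AS1 and 22.7% with TGFB2-OT1 on its own strand, TGFB1 shares 6.59% with HNRNPUL1 on the opposite strand, and TGFB3 shares 3.12% with TGFB3-AS1. The library kit was directional, but the strand setting of the counting was not given in the sources used here, so reads of the opposite-strand partners may be mixed in. Reads of TGFB2-OT1 come from the same strand as TGFB2, and no strand setting would part them.

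All 3 receptor genes were called lower. TGFBR1, the type I receptor kinase on chr9:99104038-99154192, was at 137 and 176 CPM in Control and at 69.2 and 38.5 CPM under the PRMT5 KD label. Both PRMT5 KD libraries were well below Control, yet differed 1.80-fold from each other, more than in 96.1% of all genes. The log2 fold change of -1.54 (SE 0.31, FDR 0.0118) was the largest fall among the 10 genes by its point estimate, within an SE of that of TGFB2. Without Control replicate 2 it was -1.34 with an FDR of 0.0622, and it ranged from -1.99 to -1.17 over the 4 fits with 1 library left out. TGFBR2, the type II receptor that binds ligand on chr3:30606601-30694142, was at 395 and 506 CPM in Control and at 257 and 277 CPM under the PRMT5 KD label. Here the PRMT5 KD libraries lay close together and the Control libraries apart. Its log2 fold change was -0.76 (SE 0.16, FDR 0.00824), and without Control replicate 2 -0.56 with an FDR of 0.0742. TGFBR3, the co-receptor on chr1:91680343-91906335, was at 78.4 and 86.0 CPM in Control and at 35.98 and 53.2 CPM under the PRMT5 KD label. PRMT5 KD replicate 1 was the lower of the pair, the opposite order to TGFBR1. Its log2 fold change was -0.88 (SE 0.20, FDR 0.0116), with FDRs of 0.0527 and 0.0837 without Control replicate 1 and without Control replicate 2.

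The ratio of TGFBR2 to TGFBR1, per exon length, was 3.37 and 3.35 in Control, nearly identical, and 4.33 and 8.40 under the PRMT5 KD label. Both PRMT5 KD ratios were above Control but lay far apart. The ratio was not tested.

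Among the SMADs, only SMAD2 passed both thresholds. SMAD2, a receptor-activated SMAD on chr18:47808957-47931146, was at 174 and 173 CPM in Control and at 115 and 98.1 CPM under the PRMT5 KD label. The Control libraries were almost equal and both PRMT5 KD libraries were clearly below them, with a log2 fold change of -0.70 (SE 0.12, FDR 0.00397) and -0.79 to -0.59 with 1 library left out. SMAD3, its partner on chr15:67063763-67195173, was at 295 and 308 CPM in Control and at 231 and 245 CPM under the PRMT5 KD label. Replicates were within 1.06-fold of each other in both groups, and the log2 fold change of -0.34 (SE 0.12, FDR 0.0443) stayed under the fold threshold. SMAD4, the common partner of all receptor-activated SMADs on chr18:51028528-51085045, was at 134 and 133 CPM in Control and at 104 and 110 CPM under the PRMT5 KD label. This difference too was small and even, with a log2 fold change of -0.32 (SE 0.11, FDR 0.0413), and was not called. SMAD2, SMAD4 and SMAD3 have long annotated exons, 36426, 19606 and 10011 bases, longer than 99.8%, 97.8% and 84.1% of the genes tested. When the fit adjusted for GC content and length of exons, SMAD2 had a log2 fold change of -0.24 (FDR 0.115) and was no longer called, SMAD3 had -0.12 (FDR 0.430) and no longer passed the FDR threshold, and SMAD4 stood at 0.033 (FDR 0.817), the other side of 0. SMAD3 and SMAD4 also missed the FDR threshold with total counts in place of TMM (FDR 0.288 and 0.329) and without a filter (0.0952 and 0.0917). The same held with filterByExpr (0.0885 and 0.0895), all gene names (0.146 and 0.149) and the replicate block (0.0655 and 0.0725). Both passed it with DESeq2 (0.0252 and 0.0424), RLE scaling (0.0487 and 0.0469) and a non-robust dispersion (0.0479 and 0.0415).

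SMAD7, the inhibitory SMAD on chr18:48919853-48950965, was the only gene of the 10 above Control. It was at 21.9 and 18.8 CPM in Control and at 74.1 and 25.01 CPM under the PRMT5 KD label. PRMT5 KD replicate 1 was thus far above the other 3 libraries, and replicate 2 only just above Control. The PRMT5 KD libraries differed 2.96-fold, more than in 99.2% of all genes tested, and the log2 fold change of 1.28 (SE 0.54, FDR 0.108) was not called. It rested on PRMT5 KD replicate 1, the library with 26.2% ribosomal RNA, whose part in this value was not tested. The log2 fold change was 0.33 without that library and 1.87 (FDR 2.2e-06) without replicate 2. In the latter fit the single remaining PRMT5 KD library is assumed to vary as the Control libraries do. The ratio of SMAD7 to the sum of SMAD2 and SMAD3, per exon length, was 0.162 and 0.134 in Control against 0.717 and 0.234 under the PRMT5 KD label.

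Set side by side per exon length, TGFBR2 was the most abundant of the 10 transcripts in both groups, at 65.7 ± 11.5 RPKM (SD, n = 2) in Control and 38.9 ± 2.11 RPKM under the PRMT5 KD label. In Control it was followed by TGFB2 (51.5 ± 13.1) and TGFB1 (42.5 ± 4.23), and the library values of these 3 overlapped from each to the next. SMAD3 (30.1 ± 0.90), TGFBR1 (19.6 ± 3.48), TGFBR3 (9.58 ± 0.62), SMAD4 (6.81 ± 0.06), SMAD7 (5.17 ± 0.56), SMAD2 (4.76 ± 0.01) and TGFB3 (2.02 ± 0.10) came next, with no overlap between neighbours. Under the PRMT5 KD label TGFB2 dropped behind TGFB1 (32.1 ± 4.89) and SMAD3 (23.7 ± 0.98) to 18.9 ± 4.19 RPKM. SMAD7 (12.6 ± 8.79), TGFBR1 (6.73 ± 2.72), SMAD4 (5.45 ± 0.24) and TGFBR3 (5.20 ± 1.42) followed, and from TGFB2 to TGFBR3 each overlapped with the next. SMAD2 (2.92 ± 0.32) and TGFB3 (1.31 ± 0.51) stayed last. The order depends on the gene model. By the longest transcript in place of the union of exons, an order chosen after seeing the data, SMAD4 (14.9 ± 0.13) stood above TGFBR3 (12.7 ± 0.83) in Control, without overlap, and TGFB1 overlapped with SMAD3. Under the PRMT5 KD label SMAD4 (11.96 ± 0.52) then stood above TGFBR1 (8.29 ± 3.34), also without overlap. SMAD2 was 9th and TGFB3 10th of the 10 by either length in both groups. For SMAD2 the lengths, 36426 and 34626 bases, are nearly alike, so this change of length could hardly move its place. Without division by length, SMAD2 was at 174 and 173 CPM in Control, above TGFB1 at 129 and 149 CPM. The ratio of SMAD3 to SMAD2 in Control was 6.33 by the union of exons and 9.32 by the longest transcript.

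The other pathway genes were taken from lists written from general knowledge, with earlier results of these data known. Beside each count that follows, 21.2% of all genes tested were called higher and 24.4% lower. Among genes listed for storage and activation of latent TGF-beta, 9 of 11 were tested, 6 were called lower and 0 higher (median log2 fold change -1.52). LTBP1, which tethers the latent complex to the matrix, fell from 123 and 155 CPM to 20.9 and 19.7 CPM, a log2 fold change of -2.78 (SE 0.15, FDR 0.000203). LTBP4 (-1.72), another tether, ITGAV (-1.64), the integrin alpha chain that pulls on the complex, and THBS1 (-0.94), a thrombospondin that activates it, fell too. THBS1 was not called without Control replicate 1 (-0.62, FDR 0.0643). LTBP2 and LTBP3, named after their values were seen, make up the 6. Whether each listed protein binds the latent complex was not examined. Of the fibroblast markers 4 of 4 tested fell with this list, and their part in it was not tested.

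Of the 11 other receptors of the superfamily, 8 were tested, 3 were called lower and 1 higher (median log2 fold change -0.26). BMPR2, the type II receptor for BMPs, fell by 1.58 on the log2 scale, and the type I receptors ACVR1 (-0.76) and BMPR1A (-0.62) were lower, whereas BMPR1B (1.04), a type I receptor at 3.50 to 4.88 CPM in Control, was higher. Among the 4 other SMADs, 3 were tested. SMAD1 (-0.68), which carries BMP signals, was called lower and SMAD9 (1.77), its relative, higher. SMAD9 was scarce, at 1.62 and 2.02 CPM in Control and 5.2 and 7.2 CPM under the PRMT5 KD label. The level filter keeps a gene that passes in 1 group, and which group SMAD9 passed in was not examined. Without Control replicate 2 BMPR1B (0.82, FDR 0.113) and BMPR1A (-0.52, FDR 0.108) were not called. BMPR1A also fell under the fold threshold without PRMT5 KD replicate 1 (-0.44), with total counts in place of TMM (-0.44), with the adjustment for GC content and length of exons (-0.47) and with that adjustment and the replicate block (-0.48). SMAD1 was called only in the fit without PRMT5 KD replicate 2 among the 4 that left a library out. SMAD6, the inhibitory SMAD of the BMP branch, was below the level filter, with 32 and 53 counts in Control, while the libraries labelled PRMT5 KD had 199 and 177. Its log2 fold change without a filter was 2.12 (SE 0.31, FDR 0.000533). Unlike SMAD7, it was high in both PRMT5 KD libraries.

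Of 26 other ligands only 10 were tested, of which 7 were called lower and 2 higher (median log2 fold change -1.77). The largest falls were in INHBE (-3.41), an activin subunit mostly made in liver, GDF5 (-3.34) and BMP8A (-3.13), and INHBE went from 164 and 154 CPM to 20.6 and 9.35 CPM. GDF5 was scarce, at 3.11 and 4.76 CPM in Control and 0.273 and 0.502 CPM under the PRMT5 KD label. BMP8A was at 3.94 and 5.28 CPM against 0.315 and 0.732 CPM. The level filter keeps a gene that passes in 1 group, and both passed it through Control, which bears on the count and median. BMP4 (0.799 and 1.07 CPM) and BMP8B (0.904 and 0.523 CPM), named after their values were seen, were also scarce under the PRMT5 KD label. In Control BMP4 had 5.33 and 5.32 CPM and BMP8B 2.96 and 3.78 CPM. Which group BMP4 and BMP8B passed the filter in was not examined. INHBA, the activin A subunit, was at 6.57 and 4.08 CPM in Control and at 44.6 and 12.5 CPM under the PRMT5 KD label, with PRMT5 KD replicate 1 the high library as for SMAD7. Its log2 fold change of 2.43 (FDR 0.0400) was lost without a low-count filter (FDR 0.147) and without either Control library. AMH (1.23), the anti-Mullerian hormone, was higher, though not without Control replicate 2 (FDR 0.0747). Among the 13 antagonists, 7 were tested, 3 were called higher and 2 lower (median 0.07). FST, the activin-binding follistatin, rose from 7.61 and 4.72 CPM to 196 and 375 CPM, a log2 fold change of 5.54 (SE 0.47, FDR 0.00110). BAMBI (2.22), a pseudoreceptor that blunts TGF-beta and BMP signals, and NOG (1.67), the BMP antagonist noggin, rose as well. DCN (-1.74), a matrix proteoglycan that binds TGF-beta and is abundant in fibroblasts, and FSTL3 (-0.63), a relative of FST, fell, the latter not called without Control replicate 1 (FDR 0.163).

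The intracellular regulators stood near 0 as a list. Of 20, 18 were tested, 3 were called higher and 1 lower, and 14 were not called (median 0.04). HGS (0.83), an endosomal adaptor for SMAD2, SMURF2 (0.61), a ubiquitin ligase that SMAD7 brings to TGFBR1, and TRIM33 (0.52), a SMAD4 ubiquitin ligase, were higher, and WWP1 (-0.61), a ubiquitin ligase of the same family as SMURF2, was lower. SMURF2 and TRIM33 were not called when either Control library was left out, nor was WWP1 without Control replicate 2 (FDR 0.0985). SKIL, a repressor that the pathway itself induces, was at 204 and 174 CPM in Control and at 218 and 145 CPM under the PRMT5 KD label, and the groups overlapped (log2 fold change -0.05, SE 0.21, FDR 0.846). PMEPA1, another induced inhibitor, was below the level filter, with 124 and 124 counts in Control, while the libraries labelled PRMT5 KD had 109 and 22. Its log2 fold change without a filter was -0.97 (SE 0.75, FDR 0.371).

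Of 22 genes that TGF-beta commonly induces, 20 were tested, 4 were called higher and 4 lower (median 0.31). These counts were close to the shares over all genes tested, 21.2% called higher and 24.4% lower. IL11, a cytokine, rose from 6.27 and 3.52 CPM to 148 and 64.7 CPM (4.45, FDR 0.00377), and CDKN1A (0.79), the cell cycle inhibitor p21, rose too but was not called when either Control library was left out. The matrix genes COL1A1 (-1.95) and FN1 (-1.27) and the repressor BHLHE40 (-1.10) fell. COL1A1 and FN1 are also made by fibroblasts, whose markers fell in the same libraries, and this was not tested further. Of the 5 genes that TGF-beta commonly represses in epithelium, 4 were tested and all 4 were called higher (median 2.91). ID1, which is also a direct target of BMP signals, rose from 1.95 and 1.72 CPM to 37.1 and 54.8 CPM, a log2 fold change of 4.65 (SE 0.25, FDR 0.000203). ID3 (3.70) and ID2 (2.11), of the same family, rose with it. The epithelial cadherin CDH1, the untested member of the list, had only 2 to 9 counts per library.

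**Figure D4:**
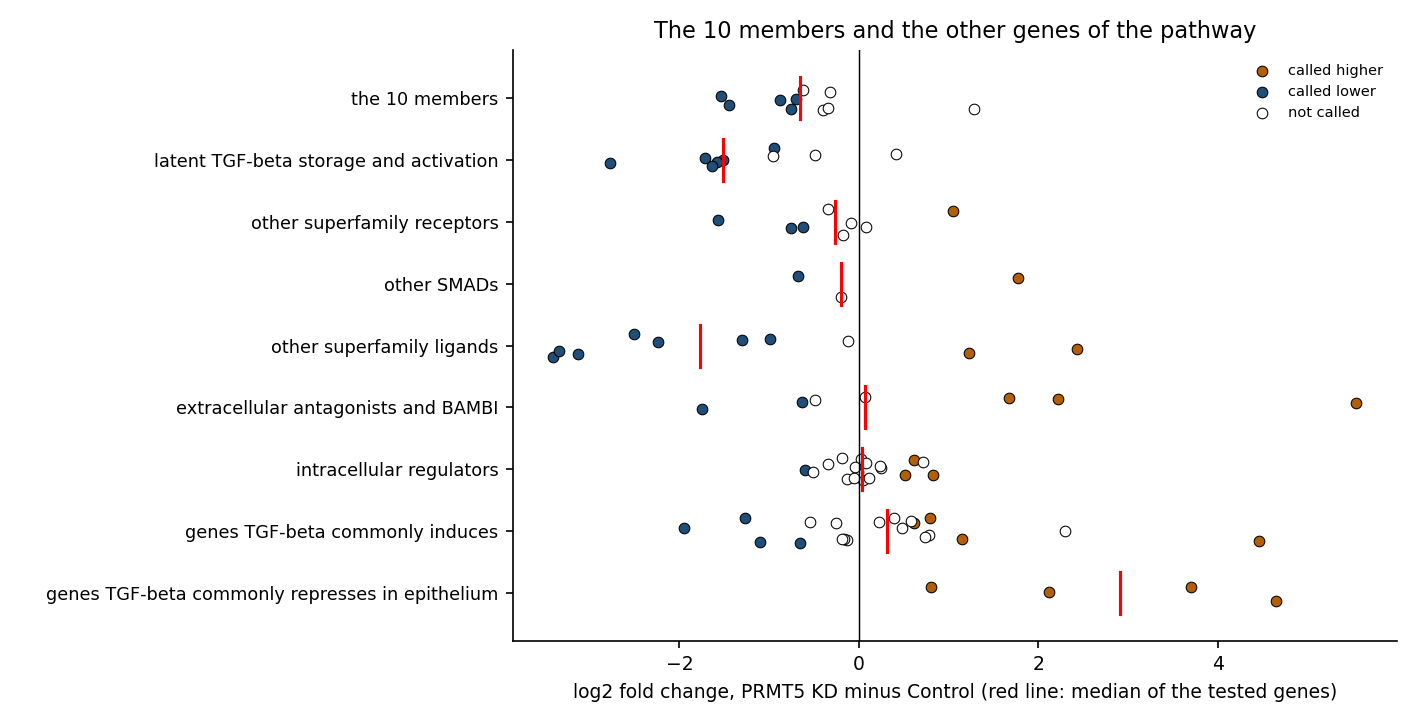
Log2 fold change, libraries labelled PRMT5 KD minus Control, of every tested gene in the 10 core genes and in each of 8 lists, with the list's median as a red line. Latent storage genes (median -1.52) and other ligands (-1.77) lie mostly on the lower side, the intracellular regulators (0.04) around 0, and the 4 tested genes repressed in epithelium on the higher side.

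**Figure D5:**
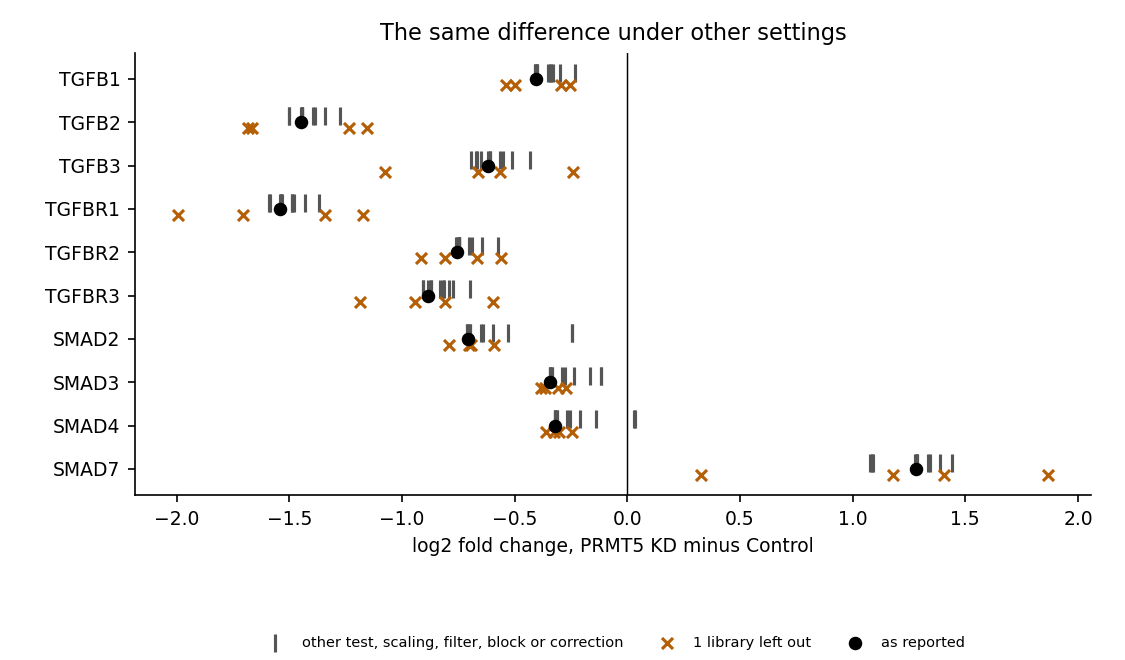
Log2 fold change of each of the 10 genes as reported (black point), with 1 library left out (orange crosses) and with other tests, scalings, filters, a replicate block or an adjustment for GC content and length of exons (grey ticks). With 1 library left out TGFB2 stays at or below -1.16 and TGFBR1 at or below -1.17, SMAD7 ranges from 0.33 to 1.87, and SMAD4 lies at 0.033 with the adjustment.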

How the data were processed

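RNA-seq libraries from UMSCC74B cells (2 Control, 2 labelled PRMT5 KD) were grouped by their labels. The authors deposited estimated counts per gene, 1 table per library, not normalized. The submitters' processing notes list FastQC, Trim Galore, STAR, Salmon, DESeq2 and GRCh38 without versions, whereas the methods describe STAR and FeatureCounts on protein-coding genes. The tables hold decimals and non-coding names, which bears on genes that share reads. Of 29744 entries, 28 with names turned into dates were left out. Names were matched to GENCODE on GRCh38 by symbol (21672), RefSeq gene number (1116) or a unique RefSeq synonym (1494), 313 were ambiguous and 5060 unmatched, which left 18896 protein-coding names.

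Counts were rounded. Genes with an RPKM of at least 0.5 (union exon length) in every library of at least 1 group were fitted with edgeR 4.0.16 (robust quasi-likelihood test, TMM factors 0.934 to 1.09, R 4.3.3), and Benjamini-Hochberg FDRs cover all 11882 genes. SE is the log2 fold change divided by the root of F. CPM and RPKM use TMM-scaled library sizes. Depth was at least 41936787 protein-coding counts per library, and the precision of a level is set by the spread of the libraries. Replicates were not duplicates of each other (mean chi-square per gene 52.3 and 127). The alternatives were DESeq2 1.42.0, other scalings, filters, gene sets and dispersions, a replicate block, an adjustment for GC content and length of exons (4 df splines), a fold threshold of 1, each library left out and, for levels per length, the longest transcript. The procedure was also run on simulated data in which few genes changed. With 45.6% of genes called here, that run cannot decide how the scaling and FDRs hold.

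The genes and lists were chosen with earlier results of these data known. Besides PRMT5 and the 10 genes, the text names SKIL, PMEPA1, SMAD6, LTBP1 and THBS1, and up to 3 called genes per list and direction with the largest change, an average log2 CPM of at least 0 and groups that do not overlap. A gene that this rule names is not reported here. No test was run over a list. Motifs were searched as exact letters on both strands.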

Additional observations from a re-analysis of the deposited data

How the results depend on the processing

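The core genes kept their direction in every alternative, except SMAD4, which was at 0.033 (FDR 0.817) with the adjustment for GC content and length of exons and at 0.032 (FDR 0.835) with the replicate block and the adjustment together. SMAD2 lost its call in the same fits (-0.24 and -0.25, FDR 0.115 and 0.154), SMAD3 moved to -0.12 in both, and the cause was not tested. With 1 library left out, the log2 fold change ranged from -0.54 to -0.25 for TGFB1, -1.08 to -0.24 for TGFB3, -1.99 to -1.17 for TGFBR1, -0.92 to -0.56 for TGFBR2, -1.19 to -0.60 for TGFBR3, 0.33 to 1.87 for SMAD7 and 0.57 to 0.78 for PRMT5. Of the 10 genes, 2 to 6 were then called lower and 0 to 1 higher, and of all genes 3118 to 5719 were called. At a fold threshold of 1, 2560 genes were called, 2 of the 10 lower. Nothing showed that same-numbered libraries were paired (correlation of same-numbered deviations -0.101). The replicate block gave 5190 calls, changed no call among the 10 and moved the intracellular regulators called lower from 1 to 2. The crossed pairing, added after the data were seen, gave 5483 calls, with TGFB3 called (-0.67, FDR 0.0437) and other ligands called higher at 1. Total counts without TMM moved the median of all genes to 0.17 and the share of calls that were higher from 46.5% to 61.5% (3505 higher, 2198 lower), with antagonists called lower at 1 and intracellular regulators called lower at 0. DESeq2 called 7 induced genes higher in place of 4. Without a filter, with filterByExpr or with all gene names, 2 other SMADs were called higher, and with all gene names 0 intracellular regulators lower. At a fold threshold of 1 the counts were 1 for other receptors lower, 0 for other SMADs lower, 1 for antagonists lower, 0 and 0 for intracellular regulators higher and lower, and 2 for induced genes higher. With 1 library left out they ranged from 0 to 1 for other receptors higher, 1 to 2 and 0 to 1 for other SMADs higher and lower, 0 to 3 for other ligands higher, 1 to 4 and 0 to 2 for intracellular regulators higher and lower, and 1 to 6 for induced genes higher. SKIL, not called in any fit, changed sign with total counts (0.12), filterByExpr (0.0080) and all gene names (0.054), and ranged from -0.35 to 0.21 with 1 library left out. Fits that leave out a library assume that the lone library of its group varies like the others.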
